A study of Mus musculus with 32 samples.

Results

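The effect of a high-protein diet (HPD) was measured in the livers of mice that did not receive corticosterone. The comparison set 3 livers of vehicle-treated mice on the HPD (replicates 1 to 3) against 4 livers of vehicle-treated mice on a normal-protein diet (NPD), 7 of the 32 libraries of the series. All of these animals were male mice aged 10 weeks, C57BL/6 by the labels and C57BL/6J by the study's methods. HPD mice were moved from the NPD to the HPD for 7 days, while NPD mice stayed on the NPD that all had received before. Protein made up 60% of the calories in the HPD and 20% in the NPD, carbohydrate being lowered in the HPD to keep the energy equal. The vehicle (veh) was ethanol in the drinking water, and the other arm of the study received corticosterone (cort) in the same way. Mice were fasted before collection, and the study as a whole used several cohorts. The labels did not tie libraries to cohorts, cages or animals, so a cohort and the diet cannot be told apart. The p-values measure the spread within the groups of the 15 liver libraries fitted together, cort livers included. RNA was read with 3′ tag sequencing (QuantSeq), which counts reads near the end of each transcript. The fourth HPD library was left out as an outlier, a choice made with the data in view, and its values are given beside the others.

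A liver that receives more amino acids than it needs for protein synthesis breaks them down, passes their nitrogen to the urea cycle and uses their carbon for glucose, ketone bodies or fat. The enzymes of amino acid breakdown and of the urea cycle are known to follow protein intake through glucagon, glucocorticoids and amino acid supply. Cysteine, a sulfur amino acid, is partly turned into taurine, and an imbalance of amino acids or other stress raises the transcription factor ATF4, which switches on genes of amino acid synthesis, transport and stress.

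The 7 libraries held between 8933307 and 16153658 counts and between 15265 and 16203 genes with a count. The summed level of 12 hepatocyte markers lay between 82100 and 120000 CPM (counts scaled to a common effective library size) in all 7, so the defining markers of the labelled tissue were present. The left-out HPD library stood apart: on the second principal component of the 16 liver libraries it had a score of -94.22, while no other library was below -16.72. Its hepatocyte markers summed to 45300 CPM, its markers of bile duct cells to 567 CPM against 134 to 240 CPM in the other 7, and it was above all 4 NPD libraries for 32.3% and below all of them for 30.3% of the genes tested. Markers of exocrine pancreas summed to 234 CPM in HPD replicate 1 and to 281 CPM in the left-out library, against 33.0 to 86.5 CPM in the others, and markers of skeletal muscle to 62.1 CPM in HPD replicate 2 and 15.5 CPM in HPD replicate 3, against 1.39 to 2.62 CPM in the NPD libraries. The part of these tissues in the results was not tested. In such bulk samples, fewer cells of a type and less RNA per cell cannot be told apart.

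**Figure D1:**
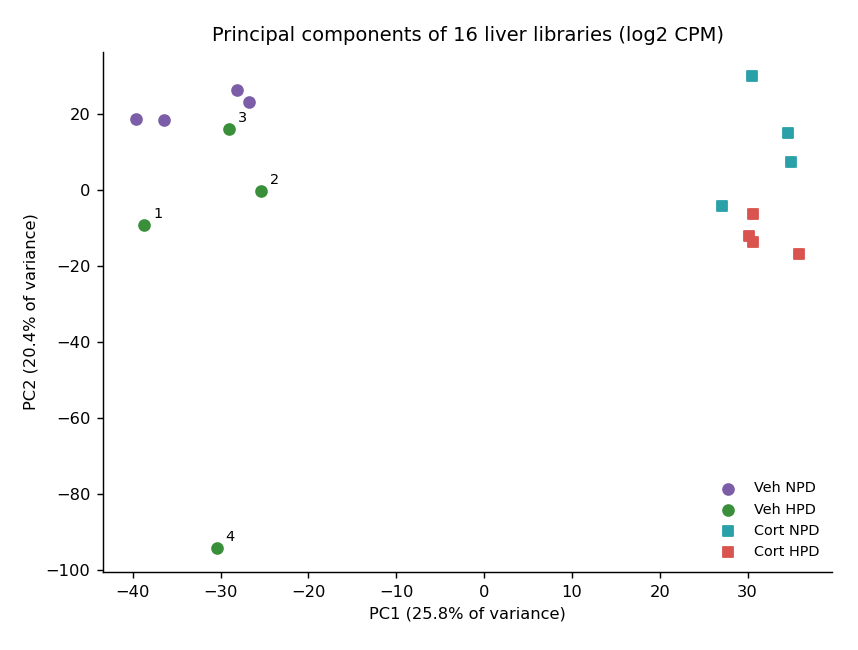
Scores of the 16 liver libraries on the first and second principal components of log2 CPM, with the share of variance on each axis and the HPD veh libraries numbered. HPD veh replicate 4 lies at -94.22 on the second component, and no other library is below -16.72.

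At an adjusted p below 0.05 (edgeR's quasi-likelihood test, Benjamini-Hochberg over 12391 genes), 21 genes (0.169%) differed between HPD and NPD in veh liver, 13 higher (0.105%) and 8 lower (0.0646%) on the HPD. They comprised 19 protein-coding genes and 2 antisense transcripts. The size of the log2 fold change lay between 0.75 and 3.33 for the genes that rose and between 0.84 and 2.04 for those that fell. The median log2 fold change over all genes was 0.004, and 1164 genes had an unadjusted p below 0.05. The groups did not overlap for 20 of the 21 genes, against 9.47% of all genes tested. The 21 were chosen by their p on these same livers, so this separation follows from the choice and adds no support. With the left-out library included, 7 genes were called, namely Col27a1, Tfrc, Slc17a8, Dsc2, Nhlrc3, Hdhd3 and Fbf1. Without NPD replicate 2 or NPD replicate 3 the count was 5, without HPD replicate 2 it was 6, without NPD replicate 1 or HPD replicate 1 it was 9, and without HPD replicate 3 it was 34. DESeq2 called 113 genes, which included the 21, and limma voom called 14. Csad, Col27a1, Tfrc, Aldh1b1 and Slc17a8 were called by edgeR whichever of the 7 libraries was removed.

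**Figure D2:**
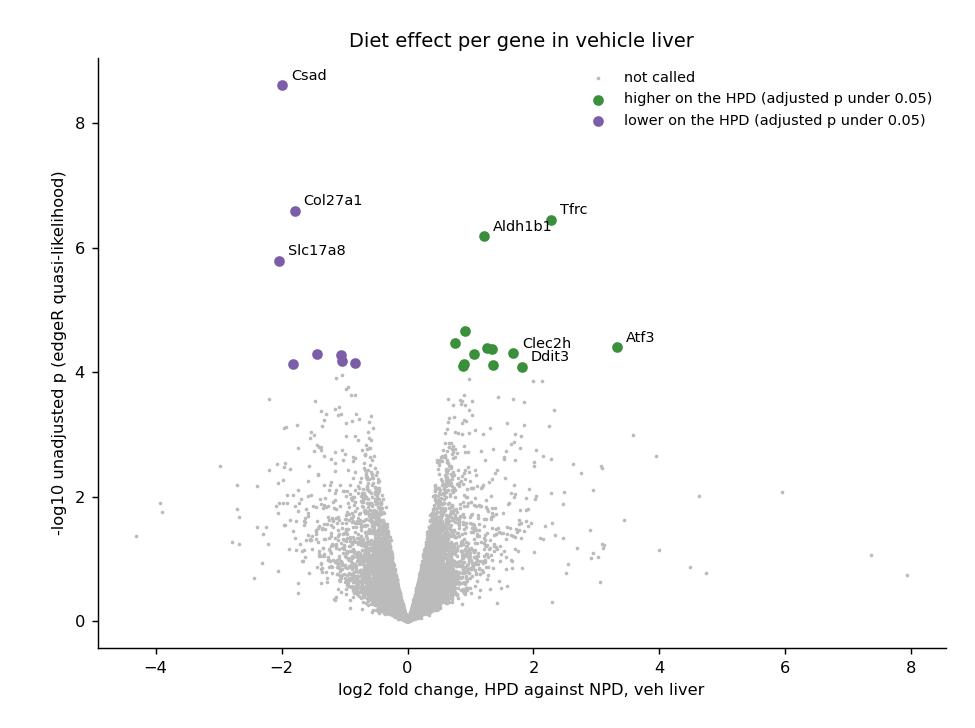
Log2 fold change of HPD against NPD in veh liver (x axis) and -log10 of the unadjusted p of edgeR's quasi-likelihood test (y axis) for the 12391 genes tested, with called genes coloured by direction. The 13 higher and 8 lower genes lie above the rest, with Csad at the top and Atf3 farthest to the right among those called.

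Csad encodes cysteine sulfinic acid decarboxylase, the enzyme that commits cysteine to taurine (ENSMUSG00000023044, GRCm38 chr15:102176999-102204724, minus strand). Its level was 111, 96.6, 107 and 77.1 CPM in the NPD livers and 22.6, 23.9 and 27.3 CPM in the HPD livers. No HPD value came near the NPD range, while the left-out library, at 92.4 CPM, lay inside it. The log2 fold change was -1.99 (SE 0.21, adjusted p = 2.99e-05), the smallest p of all genes. In cort liver, whose libraries are separate, Csad fell by 1.58 on the log2 scale (adjusted p = 2.23e-05), from 152 ± 38.5 CPM (SD, n = 4) to 50.8 ± 9.86 CPM (SD, n = 4). In epididymal white adipose tissue (eWAT) of the veh mice the log2 fold change was 0.45 (adjusted p = 0.23), and the difference between the tissues passed the test (liver minus eWAT -2.40, adjusted p = 4.16e-07). With the left-out library included, edgeR gave Csad a log2 fold change as small as -1.23 and did not call it, while limma voom with quality weights did.

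Around Csad, the sulfur amino acid list held 21 tested genes, of which Csad was the 1 called (background 0.0646% lower). The list's median log2 fold change was 0.09. Cdo1, the dioxygenase that makes the substrate of Csad from cysteine, was at 2960 ± 535 CPM (SD, n = 4) on the NPD and 2450 ± 554 CPM (SD, n = 3) on the HPD (adjusted p = 0.71). Gnmt, the glycine methyltransferase that disposes of surplus methyl groups of methionine, was at 2360 ± 403 and 3470 ± 350 CPM without overlap (adjusted p = 0.37). Cbs and Cth, which turn homocysteine into cysteine, had log2 fold changes of 0.39 and 0.54 (adjusted p = 0.51 for each). In the list, 4 members were higher (background 5.06%) and 1, Csad, was lower (background 4.33%) at an unadjusted p below 0.05.

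**Figure D3:**
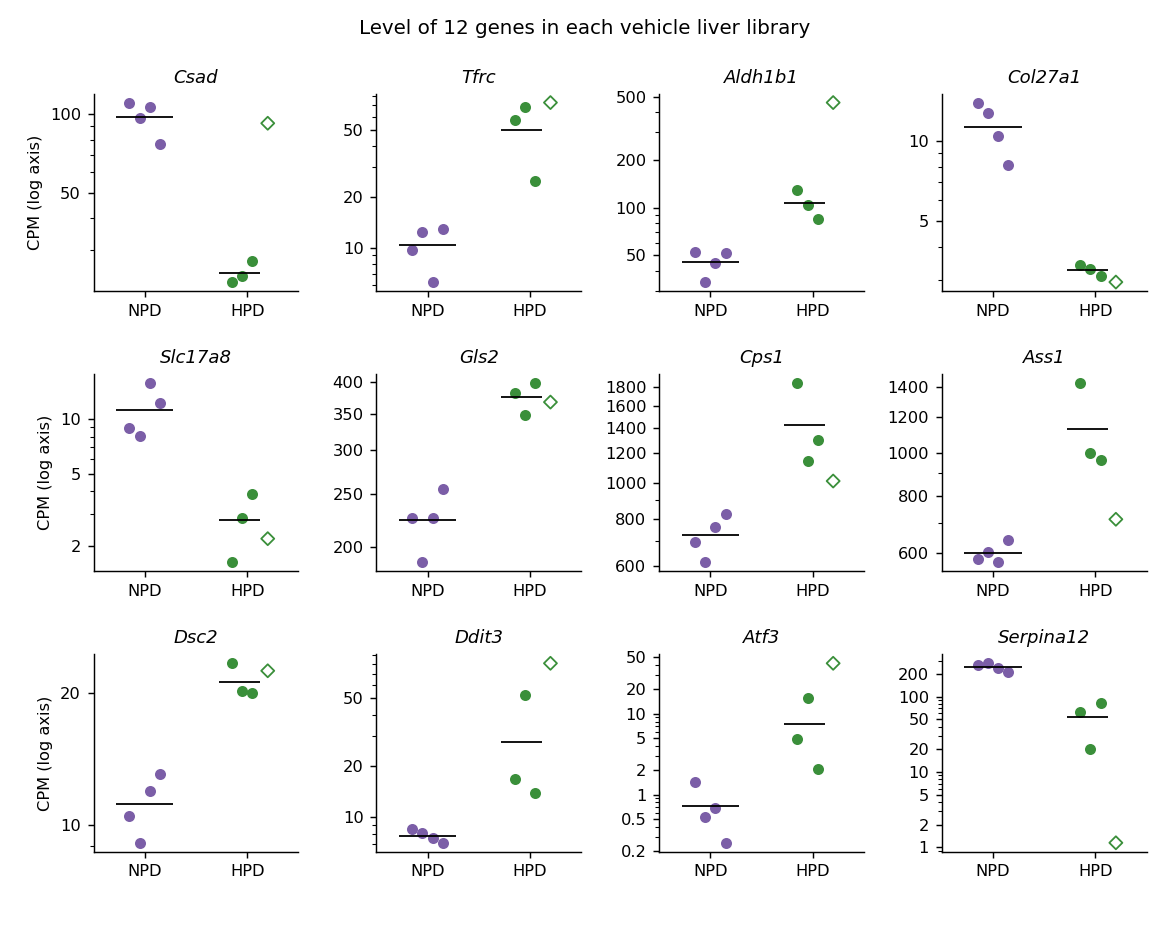
Level of 12 genes in CPM on log axes, with a filled point per veh liver library in the comparison, an open diamond for the left-out HPD library and a line at the mean of each group. For Csad the 3 HPD livers lie between 22.6 and 27.3 CPM and the NPD livers between 77.1 and 111 CPM, with the open diamond at 92.4 CPM among the NPD livers.

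Among genes that handle amino nitrogen, 1 of those listed rose. Gls2, the liver glutaminase that releases ammonia from glutamine next to the urea cycle, measured 226, 187, 226 and 255 CPM on the NPD and 382, 349 and 399 CPM on the HPD, with 368 CPM in the left-out library. All HPD livers were above all NPD livers, and Gls2 rose by 0.75 on the log2 scale (SE 0.15, adjusted p = 0.0474). By edgeR it was the 1 called gene of 42 in the amino acid catabolism list (background 0.105% higher). DESeq2 called 2 (Gls2 and Sdsl), against 113 of all 12391 genes. In this list 10 genes had an unadjusted p below 0.05 and a positive sign (background 5.06%) and 2 a negative sign (background 4.33%). The list's median log2 fold change was 0.19, with 34 of the 42 genes above 0, and 15 genes were without overlap and higher (background 4.77%). In the left-out library, 7 of these 42 genes were above and 28 below all NPD livers.

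Other amino acid catabolism genes with small p values covered several amino acids. Sdsl, a serine dehydratase-like enzyme, was at 6.23 ± 0.947 CPM (SD, n = 4) on the NPD and 11.1 ± 1.74 CPM (SD, n = 3) on the HPD (log2 fold change 0.84, adjusted p = 0.0916). Oat, which acts on ornithine, was at 434 ± 48.7 and 700 ± 52.8 CPM (0.69, adjusted p = 0.25) and rose in cort liver (0.90, adjusted p = 0.0105). Uroc1 of histidine breakdown, Aldh4a1 of proline breakdown and Aass of lysine breakdown had log2 fold changes of 0.61, 0.49 and 0.36, each without overlap between the groups. Tat, a tyrosine aminotransferase, and Sds, a serine dehydratase, overlapped between the diets, with log2 fold changes of 0.65 and 0.17. Glud1, glutamate dehydrogenase, lay on the other side, at 877 ± 61.1 CPM on the NPD and 704 ± 39.5 CPM on the HPD (-0.32, adjusted p = 0.50).

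In the urea cycle list, 0 of 11 genes passed the adjusted threshold of edgeR. DESeq2 called 2 (Cps1 and Ass1), against 113 of all 12391 genes, and limma voom 0. By edgeR 3 had an unadjusted p below 0.05, all with a positive sign (background 5.06%). Cps1, which captures ammonia as carbamoyl phosphate, read 695, 614, 762 and 827 CPM on the NPD and 1840, 1140 and 1300 CPM on the HPD, with 1010 CPM in the left-out library. Ass1, which joins citrulline and aspartate, read 582, 601, 571 and 639 CPM against 1430, 1000 and 963 CPM, with 712 CPM in the left-out library. Neither gene overlapped between the diets, HPD replicate 1 was highest for both, and the adjusted p was 0.0654 for Cps1 (log2 fold change 0.98) and 0.0970 for Ass1 (0.92). Asl, the next enzyme, was at 161 ± 26.7 and 234 ± 14.5 CPM (0.55, adjusted p = 0.20). Otc, Arg1, Nags and the ornithine carrier Slc25a15 had log2 fold changes of 0.00, 0.11, 0.03 and -0.06, and the list's median was 0.04. In cort liver, edgeR called 2 genes of this list higher (background 3.08%) and 1 lower (background 2.8%), and the list's median was 0.07. Those that rose were Ass1 (0.69, adjusted p = 0.0454) and Arg1 (0.58, adjusted p = 0.0348). Cps1 was not called there (0.39, adjusted p = 0.25).

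Amino acid transporters gave the same kind of picture, with 0 of 19 genes called by edgeR and 1 (Slc38a3) by DESeq2. At an unadjusted p below 0.05, 6 were higher (background 5.06%) and 1 lower (background 4.33%). The median log2 fold change was 0.47 (0.36 to 0.54 when single libraries were removed). Slc38a3, the glutamine carrier of periportal hepatocytes, was at 257 ± 39.2 CPM (SD, n = 4) on the NPD and 388 ± 79.2 CPM (SD, n = 3) on the HPD (adjusted p = 0.17). Slc16a10, a carrier of aromatic amino acids, was at 41.3 ± 9.05 and 63.6 ± 10.2 CPM (adjusted p = 0.18), and Slc3a2, the shared heavy chain of several carriers, at 28.5 ± 5.74 and 44.2 ± 5.05 CPM (adjusted p = 0.25). These 3 genes did not overlap between the diets. In the whole list, 4 genes were without overlap and higher (background 4.77%) and 1 lower (background 4.7%). Slc25a22, a mitochondrial glutamate carrier, had a log2 fold change of -0.52 (adjusted p = 0.45).

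The ATF4 list held 2 genes of 16 called higher (background 0.105%), Atf3 and Ddit3, both encoding transcription factors induced by stress. Atf3 read 1.42, 0.531, 0.693 and 0.254 CPM on the NPD and 4.85, 15.7 and 2.09 CPM on the HPD, and 41.9 CPM in the left-out library. Ddit3, known as CHOP, read 8.54, 8.07, 7.62 and 7.10 CPM against 16.9, 52.4 and 14.0 CPM, and 80.5 CPM in the left-out library. For both genes all NPD livers were below all HPD livers, HPD replicate 2 was highest and HPD replicate 3 lowest of the 3 in the comparison. Atf3 rose by 3.33 (SE 0.61, adjusted p = 0.0474) and Ddit3 by 1.81 (SE 0.35, adjusted p = 0.0482) on the log2 scale. Without HPD replicate 2 the log2 fold change was 2.22 for Atf3 and 0.97 for Ddit3, and neither was called. DESeq2 called 6 genes of the list (Atf3, Ddit3, Asns, Nupr1, Gdf15 and Trib3), against 113 of all 12391 genes, and limma voom 0. The diet effects of Atf3 and Ddit3 in cort liver were 0.07 and -0.06. The difference between veh and cort did not pass the test (edgeR adjusted p = 0.15 and 0.16), though DESeq2 called it for both. By edgeR the diet effect of Atf3 in liver exceeded that in eWAT (difference 3.59, adjusted p = 0.0216). DESeq2 also called it, but Atf3 was chosen on veh liver values that enter this difference.

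Of the ATF4 list, 7 of 16 genes had an unadjusted p below 0.05, all with a positive sign (background 5.06%). The median log2 fold change was 0.83. The median was 0.29 without HPD replicate 2 and 1.34 without NPD replicate 4, and in cort liver it was 0.08. Asns, asparagine synthetase, read 1.98, 0.637, 0.519 and 0.761 CPM against 2.46, 4.06 and 6.76 CPM, without overlap, and 29.1 CPM in the left-out library (log2 fold change 2.14, adjusted p = 0.0654). Here HPD replicate 3, not replicate 2, was highest of the 3. Nupr1, a small stress-induced chromatin protein, read 3.32, 2.23, 1.04 and 2.28 CPM against 12.2, 66.2 and 2.84 CPM, and Trib3, a pseudokinase that restrains ATF4 signalling, read 7.03, 9.24, 11.4 and 7.78 CPM against 20.3, 88.0 and 10.7 CPM. In both, HPD replicate 3 lay within the NPD range. Fgf21, a hormone of nutrient stress made by the liver, read 2.37, 3.72, 5.63 and 2.54 CPM against 3.63, 15.7 and 3.11 CPM (adjusted p = 0.57), and 11 CPM in the left-out library. Of the 3 HPD livers in the comparison, only replicate 2 was above the NPD livers, as was the left-out one. Atf4 itself was at 92.3 ± 10.6 CPM (SD, n = 4) and 101 ± 27.4 CPM (SD, n = 3). Psat1, an ATF4 target of serine synthesis, read 0.395, 0.212, 0 and 0.0845 CPM against 1.62, 2.42 and 0.270 CPM (adjusted p = 0.30).

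To show the regulatory sequence of this group, the promoter windows of RefSeq (GRCm38.p6, from 250 bases before to 50 bases after the start) were searched on both strands for TGATGNAA, a core of the C/EBP-ATF element that ATF4 binds, which was chosen after the values had been seen. A window was matched for 14 of the 16 genes, and 7 of them (Asns, Atf3, Chac1, Fgf21, Nupr1, Trib3 and Vldlr) held the letters, as did 4.51% of 27025 genes with a window. The 16 genes were listed for their link to ATF4, so this share says nothing about the diet. Of the 21 called genes, 18 had a window and 1, Atf3, held the letters, so Ddit3 had none in this window. The windows of Atf3 (called), Asns and Trib3 are shown 5′ to 3′ with the element in capitals. Its first base lies at -110 in Atf3, at -23 in Asns and at 14 in Trib3, counted from 0 at the start site, and it reads on the opposite strand in Atf3 and in Trib3.
Atf3, chr1:191183284-191183583, minus strand: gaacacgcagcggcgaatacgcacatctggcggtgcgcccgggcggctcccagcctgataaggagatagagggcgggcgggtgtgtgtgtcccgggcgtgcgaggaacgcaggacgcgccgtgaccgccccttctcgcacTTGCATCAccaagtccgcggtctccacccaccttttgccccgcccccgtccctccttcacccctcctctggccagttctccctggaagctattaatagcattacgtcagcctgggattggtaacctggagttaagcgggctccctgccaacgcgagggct
Asns, chr6:7693160-7693459, minus strand: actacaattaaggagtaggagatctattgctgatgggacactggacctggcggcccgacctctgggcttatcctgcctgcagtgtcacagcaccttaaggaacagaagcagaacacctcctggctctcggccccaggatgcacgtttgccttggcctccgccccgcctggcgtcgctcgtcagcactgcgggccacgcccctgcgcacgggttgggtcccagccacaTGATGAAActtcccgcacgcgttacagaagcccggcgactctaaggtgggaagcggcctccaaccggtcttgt
Trib3, chr2:152344011-152344310, minus strand: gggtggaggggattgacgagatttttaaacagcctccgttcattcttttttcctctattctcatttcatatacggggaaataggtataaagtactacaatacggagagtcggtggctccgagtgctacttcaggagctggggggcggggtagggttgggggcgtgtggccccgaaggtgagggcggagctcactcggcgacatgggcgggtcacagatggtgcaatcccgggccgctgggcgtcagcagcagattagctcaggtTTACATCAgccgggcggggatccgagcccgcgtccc
A match describes these letters only and does not show binding.

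**Figure D4:**
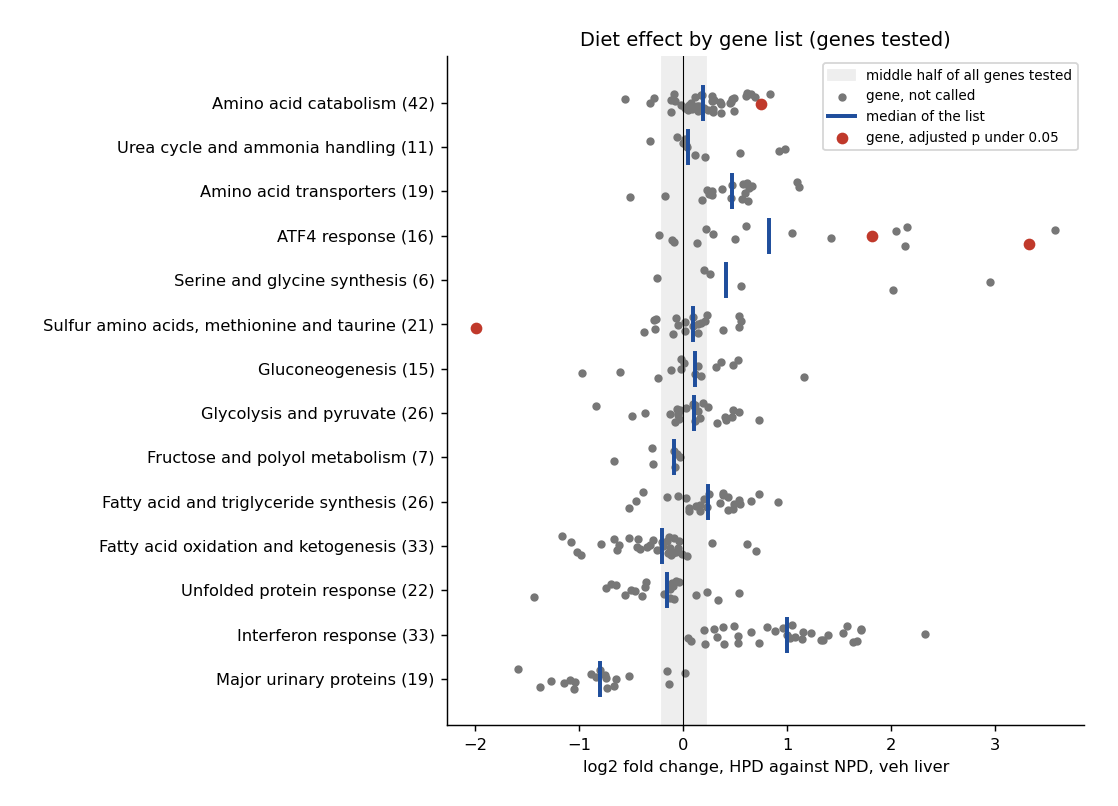
Log2 fold change of HPD against NPD in veh liver for the tested genes of 14 lists (grey, not called; red, adjusted p below 0.05), with the list's median as a blue line and the middle part of all genes tested as a grey band around 0. The interferon list, with a median of 1.0, and the ATF4 list, with a median of 0.83, lie to the right, and the major urinary proteins, with a median of -0.80, to the left.

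The remaining genes that rose had roles that included iron uptake, aldehyde metabolism and cell contacts. Tfrc, the transferrin receptor that imports iron, read 9.64, 12.4, 6.23 and 12.9 CPM on the NPD and 57.0, 68.3 and 24.9 CPM on the HPD, with 72.8 CPM in the left-out library. All HPD livers exceeded all NPD livers, and Tfrc rose by 2.28 on the log2 scale (SE 0.29, adjusted p = 0.00146). In cort liver it rose by 1.76 (adjusted p = 8.41e-04), from 14.9 ± 2.21 to 50.6 ± 11.1 CPM (SD, n = 4 each). By edgeR it was the 1 called gene among 17 of the iron and heme list (background 0.105% higher), whose median log2 fold change was 0.10. DESeq2 called 2 (Tfrc and Hmox1), against 113 of all 12391 genes. In that list, Hmox1, which degrades heme, was at 3.45 ± 0.87 CPM (SD, n = 4) and 12 ± 7.05 CPM (SD, n = 3) without overlap (adjusted p = 0.15). Hamp2, a copy of the hepcidin gene, read 184, 139, 355 and 694 CPM against 1180, 1290 and 1240 CPM (adjusted p = 0.48), while Hamp had a log2 fold change of -0.42 (adjusted p = 0.62). Reads may be shared between these 2 copies.

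Aldh1b1, a mitochondrial aldehyde dehydrogenase, read 52.3, 34.0, 44.8 and 51.9 CPM on the NPD and 130, 104 and 85.2 CPM on the HPD, and 459 CPM in the left-out library. It rose by 1.21 (SE 0.18, adjusted p = 0.00203), without overlap, and by 0.70 in cort liver (adjusted p = 0.0141).

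Dsc2, a desmocollin of cell junctions, was at 11.2 ± 1.74 CPM (SD, n = 4) on the NPD and 21.2 ± 1.89 CPM (SD, n = 3) on the HPD and rose by 0.92 (adjusted p = 0.0452), as it did in cort liver (0.65, adjusted p = 0.0176). Gstt3, a glutathione transferase, rose from 42.5 ± 17.1 to 103 ± 12.2 CPM (1.27), but stood at 36.5 CPM in the left-out library. Plk3, a stress-responsive kinase, rose from 12.3 ± 3.18 to 31.4 ± 13.5 CPM (1.35) and was the called gene whose groups overlapped, with 16.5 CPM in NPD replicate 1 and 16.2 CPM in HPD replicate 1. Clec2h, a C-type lectin with close paralogs, rose by 1.68, Nhlrc3 by 1.05, C77080 by 0.90 and Cib3, a calcium-binding protein, by 1.35. Clec2h was at 2.14 CPM in the left-out library, below its lowest NPD value of 6.16 CPM. Cib3 was nearly silent in cort liver, with 0.0953 ± 0.114 CPM on the NPD and 0.0403 ± 0.0467 CPM on the HPD (SD, n = 4 each).

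The genes that fell besides Csad had no shared role that the lists captured. Col27a1, a fibrillar collagen, read 14.0, 12.8, 10.5 and 8.12 CPM on the NPD and 3.40, 3.28 and 3.11 CPM on the HPD, with 2.94 CPM in the left-out library. It fell by 1.79 (SE 0.25, adjusted p = 0.00146) without overlap and was called under each of the 10 other settings tried. Slc17a8, a vesicular glutamate transporter, read 8.93, 8.07, 15.8 and 12.2 CPM against 1.62, 2.85 and 3.85 CPM, with 2.19 CPM in the left-out library, and fell by 2.04 (SE 0.30, adjusted p = 0.00397). Both genes also fell in cort liver, by 0.83 (adjusted p = 0.0199) and 0.97 (adjusted p = 0.0200). Slc17a8 was at 48.9 ± 3.05 and 25 ± 7.47 CPM (SD, n = 4 each) in the cort livers on the NPD and the HPD.

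Cyp2d40, a cytochrome P450 with near-identical relatives, fell from 63.7 ± 11 CPM (SD, n = 4) to 30.8 ± 8.24 CPM (SD, n = 3) and by 1.53 on the log2 scale in cort liver (adjusted p = 8.33e-05). Hdhd3, a haloacid dehalogenase-like hydrolase, fell by 1.06 and Fbf1, a protein of the ciliary base, by 1.82. The antisense transcripts Gm26588 and Gm17634 fell by 1.44 and 0.84, and since the strand setting of the counting was not given in the sources used here, their reads cannot be told apart from those of the genes they overlap. Paralogs such as Cyp2d40 and Clec2h are uncertain for a like reason, because reads can be split between copies.

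Lipid oxidation genes had mostly negative log2 fold changes, with 0 called by edgeR and 2 (Fabp1 and Acaa1b) by DESeq2. Of 33 genes of fatty acid oxidation and ketogenesis, 29 had a log2 fold change below 0. An unadjusted p below 0.05 was found for 7, all with a negative sign (background 4.33%). The median was -0.20, or -0.07 without HPD replicate 1 or NPD replicate 3. Fabp1, the liver fatty acid-binding protein, read 7950, 9210, 7380 and 6590 CPM on the NPD and 2990, 3590 and 4440 CPM on the HPD, and 616 CPM in the left-out library. The groups did not overlap (log2 fold change -1.08, adjusted p = 0.10), and in cort liver Fabp1 fell by 1.04 (adjusted p = 0.0101). Acaa1b, a peroxisomal thiolase, was at 630 ± 199 and 318 ± 70.0 CPM (adjusted p = 0.19).

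Among carbohydrate genes, the 7 fructose genes all had a log2 fold change below 0, with Khk, which phosphorylates fructose, at 316 ± 66.9 CPM (SD, n = 4) on the NPD and 199 ± 28 CPM (SD, n = 3) on the HPD (adjusted p = 0.18). In cort liver Khk fell by 0.97 (adjusted p = 0.00144). Pklr, the liver pyruvate kinase, was at 64.6 ± 15.6 and 36.2 ± 2.78 CPM without overlap (log2 fold change -0.84, adjusted p = 0.20), and fell by 1.59 in cort liver (adjusted p = 2.85e-04). G6pc, which releases glucose in the last step of its production, was at 384 ± 80.6 and 195 ± 52.8 CPM without overlap (-0.98, adjusted p = 0.15). By contrast, Pck1, an early enzyme of the same route, was at 1450 ± 231 and 1610 ± 561 CPM (0.15, adjusted p = 0.89). In cort liver G6pc did not fall (0.15, adjusted p = 0.76), and Pck1 had a log2 fold change of -0.07 (adjusted p = 0.89). Serpina12, which encodes the adipokine vaspin, read 267, 277, 242 and 215 CPM against 61.7, 19.9 and 81.8 CPM, without overlap (-2.20, adjusted p = 0.0916), and fell by 3.30 in cort liver (adjusted p = 6.80e-04). DESeq2 called Khk, G6pc, Gpd1 (a glycerol phosphate dehydrogenase) and Serpina12, all lower on the HPD, where edgeR did not. Fatty acid and triglyceride synthesis genes had a median of 0.24 over 26 genes, and -0.07 without HPD replicate 1.

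In the interferon-response list, 0 genes were called by edgeR. DESeq2 called 3 of the 33 interferon-response genes (Mx1, Oasl2 and Usp18), against 113 of all 12391 genes. All 33 had a positive log2 fold change, with a median of 1.0, and 18 had an unadjusted p below 0.05 (background 5.06%). Their summed level was 1200, 1520, 1210 and 1240 CPM on the NPD and 2810, 1250 and 1370 CPM on the HPD, so that of the 3 in the comparison only HPD replicate 1 stood above the NPD livers, and the median without it was 0.20. The left-out library, at 2080 CPM, also stood above them, with 28 of the 33 genes above all NPD livers (background 32.3%). Usp18, a brake on interferon signalling, read 8.14, 11.6, 9.26 and 10.7 CPM against 50.4, 21.3 and 16.5 CPM (log2 fold change 1.58, adjusted p = 0.12), without overlap. In cort liver, where no library is shared, edgeR called 29 of the 33 genes higher (background 3.08%) and the median was 2.30. The sums there were 692 to 920 CPM on the NPD and 2380 to 5670 CPM on the HPD.

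Major urinary proteins, pheromone carriers made by male liver under growth hormone, summed to 45100, 32700, 36400 and 30600 CPM on the NPD and 20300, 15400 and 26100 CPM on the HPD. The sums did not overlap and the left-out library stood at 445 CPM. Of 19 genes 18 had a log2 fold change below 0, the median was -0.80, 1 had an unadjusted p below 0.05 and 0 were called by edgeR, DESeq2 or limma voom, and reads are readily shared among these near-identical copies. Elovl3, a fatty acid elongase, read 492, 466, 500 and 390 CPM against 143, 139 and 172 CPM (-1.61, adjusted p = 0.37).

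Unfolded protein response genes had a median of -0.16 over 22 genes (-0.44 without HPD replicate 1 and -0.10 without NPD replicate 2). Of these genes, 4 were lower (background 4.33%) and 1 higher (background 5.06%) at an unadjusted p below 0.05. Pdia6, a disulfide isomerase of the endoplasmic reticulum, was at 483 ± 66.7 CPM (SD, n = 4) and 307 ± 30.9 CPM (SD, n = 3) without overlap (adjusted p = 0.18 by edgeR), and DESeq2 called it while limma voom did not. Ddit3 is often read with these chaperones, and it had the opposite sign here.

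The same diet comparison in cort liver shares no library with the one in veh liver, and 729 genes (5.88%) were called there. Of the 21 genes called in veh liver, 18 had the same sign in cort liver and 9 were called in the same direction, namely Csad, Col27a1, Tfrc, Aldh1b1, Slc17a8, Dsc2, Clec2h, Cyp2d40 and Gm17634. These are 42.9% of the genes called in veh liver and 1.23% of those called in cort liver. Of 382 genes (3.08%) that rose in cort liver, 298 (78.0%) were above 0 in veh liver, with a median log2 fold change of 0.25 there and 0.98 in cort liver. Of 347 (2.8%) that fell in cort liver, 201 (57.9%) were below 0 in veh liver, with medians of -0.06 and -0.89. Over all 12391 genes, 6248 were above 0 and 6140 below 0 in veh liver. The veh groups did not overlap in the same direction for 16.2% of the former (background 4.77%) and 13.5% of the latter (background 4.7%). A difference between the diet effects of veh and cort liver was called for 14 genes (0.113%), 0 of them among the 21 by edgeR, while DESeq2 called it for Atf3 and Ddit3, among others. Of the 21, 11 had an unadjusted p below 0.05 for that difference, against 1496 of all 12391 genes, but the 21 were chosen on veh values that enter it.

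In eWAT of the veh mice, 9 of 15187 genes (0.0593%) were called for the same diet comparison. Of the 21 liver genes 14 could be tested in eWAT, 7 of them had the same sign as in liver, 2 had an unadjusted p below 0.05, 0 were called by edgeR and 1 (Csad) was called by DESeq2. By edgeR the diet effect differed between the tissues for 7 of 16482 genes (0.0425%), which included Csad and Atf3. Of the 21, DESeq2 called this difference for 5, Csad and Atf3 among them, and limma voom for 1. The 21 were chosen on veh liver values that enter it.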

How the data were processed

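RNA from the livers and eWAT of the mice was sequenced as 3′ tag libraries, and the file that the authors deposited holds raw, unnormalized counts for 47643 Ensembl genes in 32 libraries. The submitters' processing notes name GRCm38 (mm10), R and limma, and the aligner, counter and annotation were not given in the sources used here. Counting reads near the 3′ end makes a level independent of transcript length but can miss other isoform ends.

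From the counts, 15 liver libraries of 4 groups, without veh HPD replicate 4, were fitted together in edgeR 4.0.16 (R 4.3.3) with filterByExpr (minimum count 10, minimum total count 15), TMM factors and the robust quasi-likelihood test. An adjusted p (Benjamini-Hochberg over 12391 genes) below 0.05 was called. SEs were derived from the log2 fold change and the F statistic, so they include the spread between libraries. CPM were computed with TMM-scaled library sizes. The same fit gave the cort comparison and the interaction, a fit of 16 eWAT libraries the eWAT comparison, and a joint fit of 31 libraries the tissue difference. DESeq2 1.42.0 and limma 3.58.1 (voom) were alternatives. The edgeR test was tested on simulated data for veh liver (12149 genes, 200 changed by 2 on the log2 scale). There it recovered 99% with 4.81% false calls, against 11.2% false for DESeq2 and 5.69% for limma voom. The simulation gave all genes the same spread, changed only well-counted genes and held no outlying library. These shares therefore need not hold for the calls in the real livers. In the real veh livers the called changes had sizes of 0.75 to 3.33. Recovery of changes smaller than 2 was not tested, and the share of false calls in the real livers was not tested.

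Named genes were the called genes, of each list its called members or the 2 with the smallest p, and a set of genes chosen by hand. Others from the lists were named as examples after their values were seen. The 30 pathway and 14 marker lists and the genes described were chosen with earlier results of these data known. Symbols were matched for 47224 IDs. Replicates of a group differed by more than sampling noise, and 0 pairs held identical values. Some genes are not reported here.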

Additional observations from a re-analysis of the deposited data

Results flagged for a closer look

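The diet effect of Csad was -2.40 on the log2 scale in liver minus eWAT (edgeR's quasi-likelihood test on the joint fit, adjusted p = 4.16e-07), and that of Atf3 was 3.59 (adjusted p = 0.0216). DESeq2 called both, while limma voom called 1 of the 21 liver genes for this difference. The 21 had been chosen on veh liver values that enter it. Within the 4 NPD livers, Dixon's criterion marked single libraries far from the other 3, namely NPD replicate 4 for Nhlrc3 (3.47 CPM), Ppargc1a (14.0 CPM) and Thrsp (622 CPM), and NPD replicate 1 for Asns (1.98 CPM). Chance marks about 1 in 20 groups. In the left-out HPD library, which the comparison does not use, markers of bile duct cells (567 CPM summed), exocrine pancreas (281 CPM) and skeletal muscle (5.39 CPM) and genes of the cell cycle (757 CPM) were above their levels in all 4 NPD livers. Skeletal muscle markers were higher still in HPD replicates 2 and 3 (62.1 and 15.5 CPM), and exocrine pancreas markers stood at 234 CPM in HPD replicate 1. The cell cycle genes summed to between 86.1 and 120 CPM in the NPD livers and between 69.2 and 114 CPM in HPD replicates 1 to 3.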

How the results depend on the processing

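For veh liver the count of 21 moved to 113 with DESeq2, 56 without a filter on low counts, 15 with RLE size factors, 14 with limma voom, 14 with library totals in place of TMM (11 higher, 3 lower, chosen after seeing the data), 7 with replicate 4 included, 20 with the 2 groups alone (6 higher, 14 lower, 7 shared), 1 with those and replicate 4, 30 with voom quality weights and replicate 4, and 5 to 34 when 1 replicate was left out. With the replicate block it was 27 (11 higher, 16 lower, 14 shared), the replicate numbers of veh pairs correlating at 0.0708 to 0.154, so the numbers were not taken to pair the samples. None of the 21 genes changed sign under any alternative. The 729 cort calls became 1075 with DESeq2, 951 with library totals (221 higher, 730 lower), 371 with replicate 4 included, 644 with the block and 356 to 622 with 1 replicate left out. The 14 interaction calls became 9 with RLE, 130 with DESeq2, 7 with voom, 72 without the filter, 10 with the block, 23 with library totals, 1 with replicate 4 and 2 to 39 with 1 replicate left out. The 9 eWAT calls became 126 with DESeq2, 19 with voom, 30 without the filter, 4 with the 2 groups alone, 9 with the block and 5 to 64 with 1 replicate left out. The 7 tissue-difference calls became 78 with DESeq2, 9 without the filter, 5 with the block and 4 to 23 with 1 replicate left out. The cause of these changes was not tested. With 3 against 4 livers and depths of 8933307 to 16153658 counts, genes under about 1 CPM rest on few reads, and most single-gene calls lie close to the threshold.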

Other observations

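In the left-out HPD library, the genes farthest from the median of the other 7 veh livers included H19 and Sprr1a on the high side. H19, a noncoding RNA of the fetal liver, was at 684 CPM there, at 7.52 CPM in HPD replicate 2 and at 0 to 1.01 CPM in the other 6 livers. Sprr1a, a small proline-rich protein of stressed epithelium, was at 47.3 CPM against 0 to 2.85 CPM. Among those farthest on the low side, Mup11, a major urinary protein, was at 3.39 CPM, Slco1a1, an anion transporter, at 0.848 CPM, Elovl3 at 0.249 CPM and Hsd3b5, a steroid dehydrogenase, at 0.150 CPM. Of 18 tested cell cycle genes, 17 were above all NPD livers in this library (background 32.3%), and all 19 major urinary protein genes were below them (background 30.3%). Igfbp1, a secreted binding protein of fasting, was at 1410 CPM against 42.1 to 566 CPM in the other 7.

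Among lists not described so far, 5 of 20 circadian clock genes had an unadjusted p below 0.05 and a positive sign (background 5.06%). Their list had a median log2 fold change of 0.43 (0.20 without HPD replicate 3), with 0 called by edgeR and 0 by DESeq2. Dbp, an output gene of the clock, read 7.03, 15.3, 30.3 and 43.3 CPM on the NPD and 20.1, 45.9 and 125 CPM on the HPD, a spread within each diet of several-fold. The labels give no hour of collection. Nr1i3, the xenobiotic receptor CAR, read 38.3, 56.9, 53.2 and 44.1 CPM against 20.7, 26.2 and 28.1 CPM without overlap (adjusted p = 0.0800 by edgeR), and DESeq2 called it. Phgdh, the entry enzyme of serine synthesis, was too low to test, with 0 counts in each NPD liver, 4 counts in HPD replicate 1, 0 in HPD replicates 2 and 3, and 19 in the left-out library.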
